A study of Mus musculus with 6 samples.

Results

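Described here are 10 genes tied to disease-associated microglia, the state that microglia take on around lesions and plaques: Trem2, Tyrobp, Apoe, Lpl, Spp1, Cd9, Gpnmb, Lgals3, Msr1 and Ctsd. They were picked by symbol and not by a cut-off on a measured value, but with earlier results of these data known. Each of the 10 matched 1 of the 32285 genes in the count table. Single cells were taken from the brain of male mice aged 8 to 12 weeks that carried the Rgs5::GFP reporter on 1 allele (labelled RGS5::GFP het), so every group, controls included, was heterozygous for Rgs5. All had a permanent occlusion of the middle cerebral artery (pMCAO), and the labels give 1 sample from the contralateral and 1 from the ipsilateral side at 1, 12 and 24 h. Neurons were depleted and living cells sorted before 10x capture, the contralateral samples come from operated animals, and the 24 h samples were run on another sequencer than the rest. The table joins 6 libraries numbered by barcode suffix, and none of the sources used here says which number is which side or time. The libraries are therefore described one by one, with no comparison between sides or times and no p-value.

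TREM2 is a receptor of microglia and other myeloid cells that binds lipids and lipoproteins, among them particles with apolipoprotein E, and it signals through the adaptor TYROBP (DAP12) to the kinase SYK. In the disease-associated state, described around plaques and in demyelination, microglia lose homeostatic transcripts such as P2ry12 and Tmem119 and gain genes of lipid uptake, lipid breakdown and the lysosome. LPL hydrolyses triglycerides in lipoproteins, MSR1 is a scavenger receptor for modified lipoproteins, CD9 is a tetraspanin, cathepsin D is a lysosomal protease, GPNMB is a glycoprotein of lysosome-rich macrophages, LGALS3 (galectin-3) binds sugars on damaged lysosomes, and SPP1 (osteopontin) is a secreted ligand of integrins and CD44.

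After filtering, 17357 cells fell into 25 clusters, and 13 cell classes were named from fixed marker lists that held none of the 10 genes. The members took no part in the clustering either. Of these cells 8130 were microglia-like and 374 monocyte-derived macrophage-like. Libraries 1 to 6 held 12427757, 12921334, 40793772, 32463365, 15436842 and 22775071 unique molecular identifiers (UMIs, counted molecules) and 1221 to 5873 cells, with a median of 5053 to 5660 UMIs per cell. Microglia-like cells numbered 321, 431, 3317, 2207, 862 and 992 in libraries 1 to 6. Macrophage-like cells numbered 0, 3, 11, 121, 4 and 235, so their values come almost wholly from libraries 4 and 6. Between libraries, 26 cell barcodes were shared, against 17.2 if barcodes had been drawn independently, and removing these 52 cells changed none of the counts of members below. Levels are UMIs summed over the cells of a group, per 1000000 UMIs of that group (CPM), and their 95% intervals are exact Poisson intervals that cover counting error but not the spread between animals.

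In build mm10 the genes lie in RefSeq annotation as follows: Trem2 at chr17:48346401-48352276 (plus), Tyrobp at chr7:30413782-30417582 (plus), Apoe at chr7:19696244-19701310 (minus), Lpl at chr8:68880555-68906932 (plus), Spp1 at chr5:104435111-104441053 (plus), Cd9 at chr6:125460266-125494760 (minus), Gpnmb at chr6:49036518-49058182 (plus), Lgals3 at chr14:47373860-47386167 (plus), Msr1 at chr8:39543232-39642750 (minus) and Ctsd at chr7:142375910-142387827 (minus). The stretches before the start site are shown for 5 members, since these set out the contrast described below: Trem2 and Ctsd, counted in nearly all microglia-like cells, and Spp1, Lgals3 and Gpnmb, which were nearly absent from most of them. Each is the 250 bases before the RefSeq start (build GRCm38.p6), 5′ to 3′ on the gene's strand. Trem2 lies at chr17:48346151-48346400 (plus strand), Ctsd at chr7:142387828-142388077 (minus), Spp1 at chr5:104434861-104435110 (plus), Lgals3 at chr14:47373610-47373859 (plus) and Gpnmb at chr6:49036268-49036517 (plus).
Trem2: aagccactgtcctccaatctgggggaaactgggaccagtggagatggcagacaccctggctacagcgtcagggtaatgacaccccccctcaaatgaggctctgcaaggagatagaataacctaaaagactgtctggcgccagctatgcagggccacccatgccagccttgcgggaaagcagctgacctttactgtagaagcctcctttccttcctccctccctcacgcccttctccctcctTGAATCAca
Ctsd: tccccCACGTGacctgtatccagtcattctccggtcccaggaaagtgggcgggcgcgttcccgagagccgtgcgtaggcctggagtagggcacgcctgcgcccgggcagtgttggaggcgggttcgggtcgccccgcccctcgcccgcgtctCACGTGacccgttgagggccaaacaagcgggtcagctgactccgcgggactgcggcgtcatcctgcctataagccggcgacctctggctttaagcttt
Spp1: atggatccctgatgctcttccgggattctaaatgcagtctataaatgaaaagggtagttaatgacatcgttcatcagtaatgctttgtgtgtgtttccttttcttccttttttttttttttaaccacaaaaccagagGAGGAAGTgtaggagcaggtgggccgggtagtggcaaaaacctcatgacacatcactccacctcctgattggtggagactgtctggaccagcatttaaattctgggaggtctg
Lgals3: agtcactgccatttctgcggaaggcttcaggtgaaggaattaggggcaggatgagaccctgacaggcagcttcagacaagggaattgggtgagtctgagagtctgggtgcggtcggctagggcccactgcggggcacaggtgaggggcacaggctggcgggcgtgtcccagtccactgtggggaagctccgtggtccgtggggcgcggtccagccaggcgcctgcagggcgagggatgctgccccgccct
Gpnmb: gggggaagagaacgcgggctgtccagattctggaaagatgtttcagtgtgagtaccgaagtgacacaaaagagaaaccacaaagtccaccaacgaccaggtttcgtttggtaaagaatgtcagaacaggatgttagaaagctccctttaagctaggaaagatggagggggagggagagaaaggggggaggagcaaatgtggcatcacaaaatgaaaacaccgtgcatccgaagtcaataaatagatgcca
Capitals mark matches on either strand to CACGTG, the palindromic box read by the MiT/TFE factors of lysosomal genes, to TGANTCA, the AP-1 site, and to GAGGAAGT, a site of the myeloid factor PU.1; the matches overlap none of each other. The Ctsd stretch held CACGTG at 2 places, beginning 245 and 98 bases before the start. Spp1 held GAGGAAGT 113 bases before its start, and Trem2 held TGANTCA, with A in the place of N, 9 bases before its start. The motifs were chosen with results of these data known. Over all 32851 promoter stretches of the same length, 6.02% held CACGTG, 6.75% TGANTCA and 2.44% GAGGAAGT. None of these letters occurred in the stretches of Lgals3, Gpnmb, Apoe or Cd9. For Apoe, with 3 entries, a single one was read. It lies at chr7:19699189-19699438, inside the gene interval given above and not before its outer end. Entries for Tyrobp, Lpl and Msr1 were not used here.

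The first question was in which cells the 10 genes were counted. For 6 of the 10, a microglia-like or macrophage-like class held the highest level, against 10.3% of the 14221 genes with at least 10 CPM in a class. Microglia-like cells held 94.9% of the UMIs of the receptor Trem2, at 2005 CPM (interval 1992 to 2018), 8.24 times (7.60 to 8.96) the next class. That next class was cluster 15, a cluster of 258 cells led by the class II genes Cd74 and H2-Aa that was left unnamed. After each cell was thinned to 1000 UMIs, 83.1% of microglia-like cells and 12.6% of macrophage-like cells kept a Trem2 UMI, against 2.36% of oligodendrocyte-like cells, which should lack it (median 5150, 8848 and 8876 UMIs per cell before thinning). Its adaptor Tyrobp was spread over the myeloid classes instead. It stood at 4499 CPM in neutrophil-like cells, 2516 in macrophage-like cells, 2345 in microglia-like cells and 1660 in cluster 15. In neutrophil-like cells Trem2 was at 120.5 CPM, where microglial RNA in the amount of their microglia-marker UMIs would carry 107 CPM of it. The same RNA would carry 132 CPM of Tyrobp. Tyrobp was at 4203, 4717 and 4085 CPM in the neutrophil-like cells of libraries 3, 4 and 6, the ones with 20 or more such cells.

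Ctsd followed Trem2, with 91.6% of its UMIs in microglia-like cells and 7796 CPM there, against 1910 in neutrophil-like and 1547 in macrophage-like cells. Lpl, too, had most of its UMIs (95.9%) in microglia-like cells, at 227.8 CPM. But the next class, the 31 fibroblast-like cells, stood at 157 CPM and the ratio of 1.45 had an interval of 1.02 to 2.14. Without library 6 the order turned, with 261 CPM of Lpl in the 20 fibroblast-like cells left and 153 CPM in microglia-like cells. Leaving out library 4 instead gave 90.7 CPM in 29 fibroblast-like cells and 142 CPM in microglia-like cells. Of the 31 Lpl UMIs in fibroblast-like cells 15 were in 1 cell, so the place of this class is weakly supported. At a finer clustering resolution of 1.2, Lpl was highest in an unnamed cluster of 245 cells, described below, at 3328 CPM. Cd9 was not bound to the myeloid classes. Its levels were 1377 CPM in neutrophil-like, 1214 in oligodendrocyte-like and 1211 in microglia-like cells, a ratio of 1.13 (1.06 to 1.21) between the first and the second. By library, oligodendrocyte-like cells ranged from 907 CPM in library 6 to 1563 CPM in library 4, the libraries that were also apart in microglia-like cells.

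Apoe was highest outside the named myeloid classes (at a finer clustering resolution of 1.2, a perivascular macrophage-like class was highest). Astrocyte-like cells held 13647 CPM, cluster 15 held 8013, fibroblast-like cells 5944, macrophage-like cells 3421, oligodendrocyte-like cells 2564 and microglia-like cells 590 CPM. In each of the 6 libraries astrocyte-like cells stood between 11998 and 18430 CPM, oligodendrocyte-like cells between 2312 and 2937 CPM and microglia-like cells between 469 and 722 CPM, so that the 3 classes did not overlap. Cluster 15 did not keep its place in this order: it stood at 13551, 10833, 19868 and 2679 CPM in libraries 3 to 6, and without library 6 it was highest of all, at 14077 CPM against 13610 in astrocyte-like cells. Most microglia-like cells had little of it: 49.1% had any Apoe UMI, while 51 of the 8130 cells had 50 or more and together held 27.5% of the UMIs.

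The remaining members were highest in the macrophage-like class or in stromal cells. Gpnmb reached 273 CPM in macrophage-like cells, which held 88.8% of its UMIs, and was at 1.71 CPM in microglia-like cells. Lgals3 was at 4055 CPM in macrophage-like cells, 723 in cluster 15, 611 in neutrophil-like and 101 in microglia-like cells. Msr1 was at 227 CPM in macrophage-like and 54.4 in microglia-like cells. Spp1 was highest in the 31 fibroblast-like cells, at 7132 CPM with a UMI in 93.5% of the cells, followed by 3480 CPM in macrophage-like, 494 in pericyte-like and 480 in microglia-like cells. Pericyte-like cells had Spp1 in each of the 6 libraries, from 107 to 783 CPM, and their microglia-marker UMIs would carry 32.0 CPM. In the same cells Lgals3 was at 0.592 CPM and Gpnmb at 0, so Spp1 stood there without these 2. In GENCODE vM21 Spp1 overlaps Gm42793, and Ctsd overlaps Gm49369, on the same strand, and Cd9 overlaps Gm28809 and Gm26728 on the other. How reads in the overlaps were counted was not examined.

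**Figure D1:**
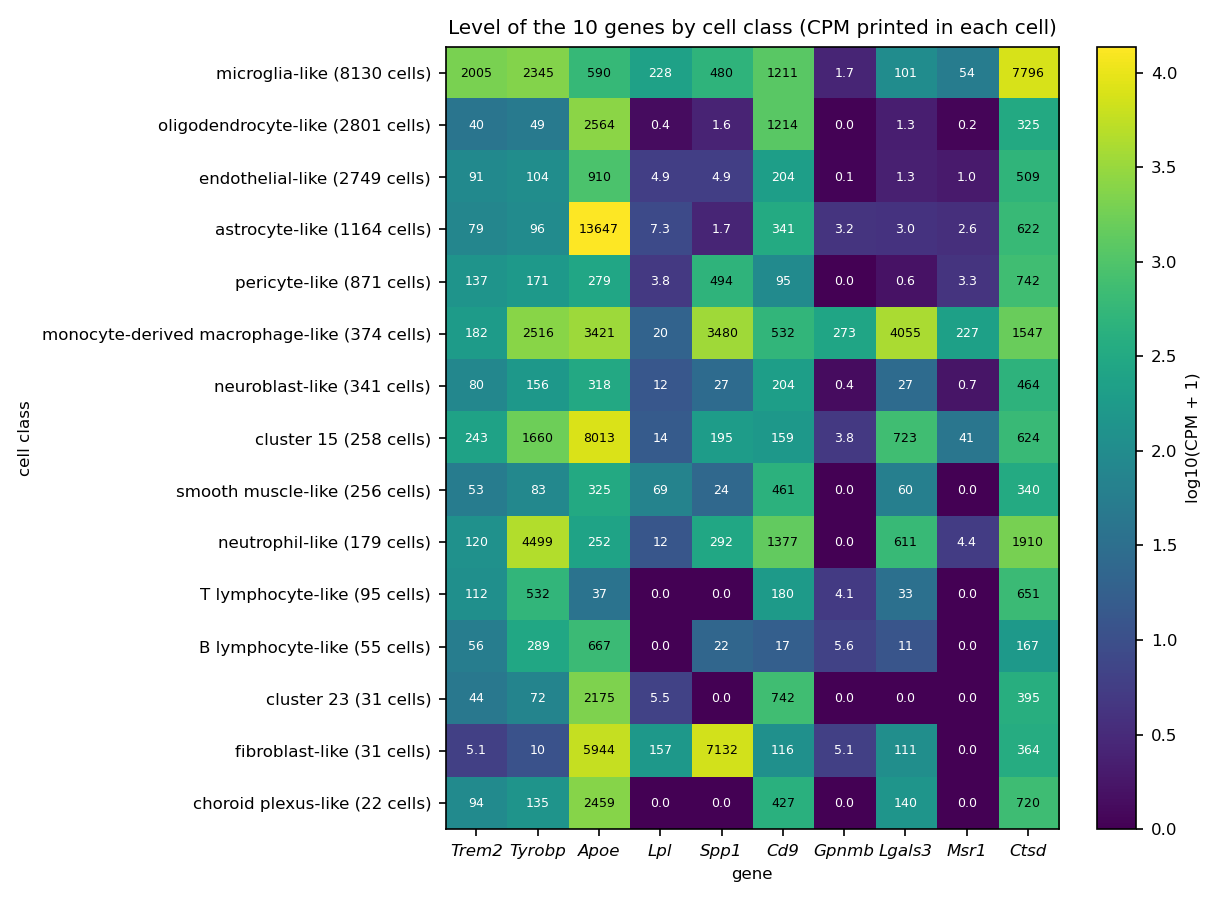
Level of the 10 genes (columns) in the 13 named classes and 2 unnamed clusters (rows, with their cell numbers), as colour on a log10 scale and as printed CPM. Trem2, Lpl and Ctsd peak in the microglia-like row, Gpnmb, Lgals3 and Msr1 in the macrophage-like row, Apoe in astrocyte-like and Spp1 in fibroblast-like cells.

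Microglia-like cells were then compared between the 6 libraries. In this class 6 of the 10 members differed by at least 2 times between the highest and the lowest library, where counts under 3 UMIs were set to 3. Among the 8942 genes with at least 10 CPM in a library, 36.5% did so; Gpnmb was under 10 CPM in all 6, which leaves 5 of 9 members beside that share. The members split into a steady and a library-bound set. In libraries 1 to 6, Spp1 was at 8.85, 22.9, 15.9, 905, 28.8 and 1476 CPM. Lpl was at 7.49, 15.1, 6.44, 438, 12.6 and 684 CPM in the same order. Lgals3 stood at 6.81, 0, 0.855, 249, 0.841 and 204 CPM, where the interval of library 2, with no UMI, reaches 1.92 CPM. Msr1 stood at 0.681, 2.09, 4.22, 92.3, 2.10 and 183 CPM. For these 4 genes libraries 4 and 6 were high and the other 4 libraries low, with no overlap. The highest over the lowest library was 106 times for Lpl (88.1 to 129), 167 times for Spp1 (97.5 to 313) and at least 129 times for Lgals3, which is library 4 against library 2 by the lower bound of the interval of their ratio. The lowest Msr1 value rests on 1 UMI, so its ratio of 269 has an interval of 48.1 to 10624. Free RNA in near-empty barcodes moved with them: Spp1 was at 826 and 561 CPM there in libraries 4 and 6, and at 13.5 to 48.5 CPM in the others. Microglia-like cells of the same libraries held 905 and 1476 CPM of Spp1. Lgals3 was at 258 and 456 CPM in the free RNA of libraries 4 and 6, above the 249 and 204 CPM of the cells. Free Lpl, at 102 and 130 CPM, and free Msr1, at 30.4 and 38.3 CPM, lay below the cells. The part of free RNA in these values was not tested.

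The receptor pair, the lysosomal protease and Apoe varied far less. Trem2 ranged from 1551 CPM in library 6 to 2477 in library 2, Tyrobp from 1827 to 2794, Apoe from 469 to 722 and Ctsd from 6707 to 9893 CPM, so their highest library was 1.48 to 1.60 times the lowest. Cd9 ranged from 710.5 CPM in library 6 to 1852 in library 2, a ratio of 2.61 (2.49 to 2.72), and stood at 1630 CPM in library 4. Libraries 4 and 6, alike in Spp1 and Lpl, were thus far apart in Cd9. Gpnmb lay between 0.399 and 4.24 CPM, on 77 UMIs in all.

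**Figure D2:**
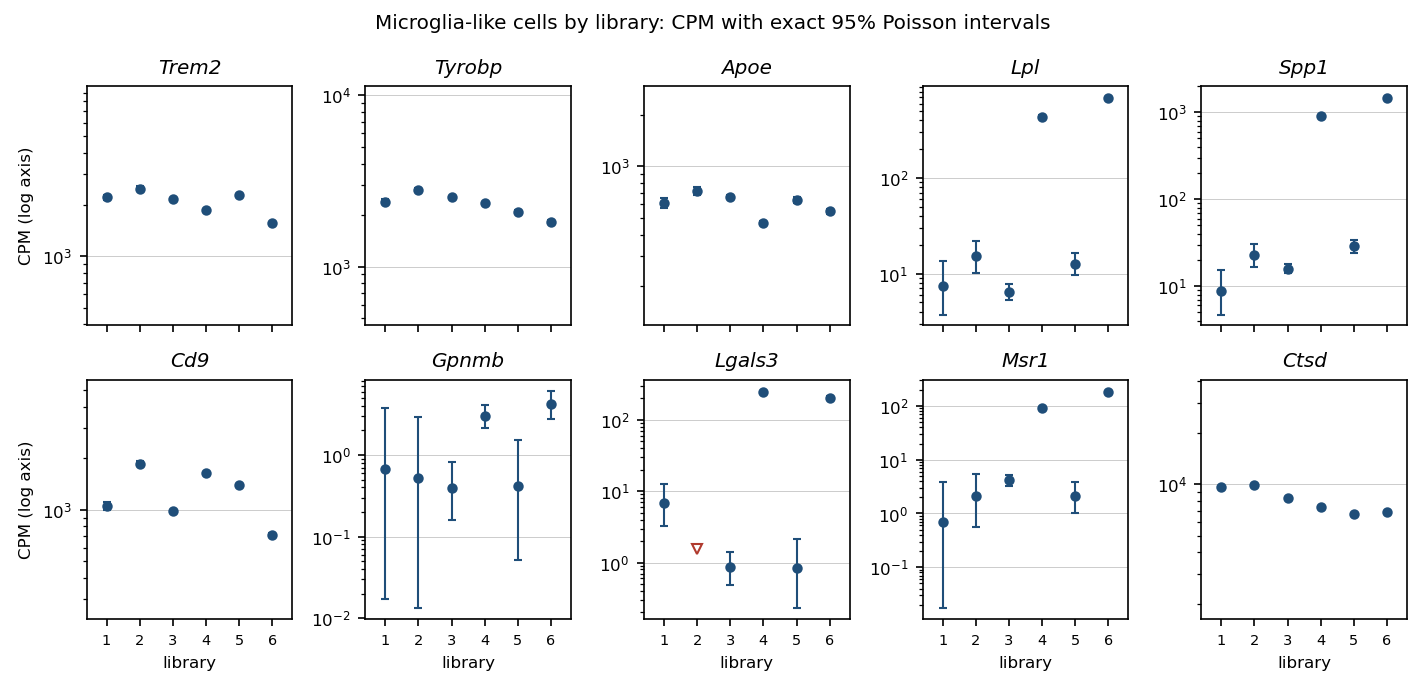
Level of each member in microglia-like cells (CPM, log axis) in libraries 1 to 6; bars are exact 95% Poisson intervals and the open triangle marks a count of 0, drawn at the level of 3 UMIs. Spp1, Lpl, Lgals3 and Msr1 sit high in libraries 4 and 6, whereas Trem2, Tyrobp, Apoe and Ctsd stay within 1.60 times.

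Within those libraries the high values lay mostly in 1 cluster. Microglia-like cluster 5, led by the chemokine genes Ccl12 and Cxcl10, the elastase Mmp12 and Cd14, held 1453 cells, of which 821 were in library 4, 577 in library 6 and 34 in library 3. All 8 microglial markers were raised in it, but none was among its 10 leading genes. It was set against the 3 other microglia-like clusters of 100 or more cells in the same library, a comparison chosen after its values were seen. In library 4, Lpl stood at 962 CPM in that cluster and 10.4 CPM in the others, a ratio of 92.4 (73.5 to 118). Library 6 gave 944 against 49.3 CPM, a ratio of 19.1 (15.6 to 23.8). Spp1 stood at 1980 against 31.8 CPM in library 4 and at 2067 against 68.3 CPM in library 6. Lgals3 was 196 times higher (126 to 321) in library 4 and 47.6 times (26.5 to 95.6) in library 6, and Msr1 49.2 and 67.9 times. As averages over the whole cluster, the levels of Lpl and Spp1 were close to each other in both libraries, while Lgals3 differed (550 against 284 CPM). Inside the subcluster with most Spp1, described below, the libraries were further apart for Lpl and Spp1.

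As shares of all UMIs, Trem2 and Tyrobp were lower in the cluster. Over all libraries its cells had a median of 6809 UMIs, against 5023, 4234 and 6090 in the other clusters. Counts per cell can therefore differ from these CPM and were not compared. Trem2 was at 1354 CPM in the cluster and 2247 in the others of library 4, and at 1220 against 2353 CPM in library 6, which is 1.66 (1.62 to 1.71) and 1.93 (1.85 to 2.01) times lower. Tyrobp was 1.43 and 1.47 times lower, and Ctsd 1.22 and 1.11 times lower. The ratio of Apoe was 1.03 (0.974 to 1.08) in library 4 and 0.674 (0.629 to 0.723) in library 6. Cd9 was 1.35 times higher in library 4 and 1.37 times lower in library 6. In each of the 2 libraries 4 of 9 members with enough counts were at least 2 times higher and 0 at least 2 times lower, against 6.98% higher and 7.36% lower of all genes in library 4 and 7.66% and 8.01% in library 6.

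The 34 cells of this cluster in library 3 held another set. Lpl was at 95.4 against 5.23 CPM and Lgals3 at 33.2 against 0.407 CPM, yet Spp1 was at 12.4 CPM, 3 UMIs in 1 cell, against 16.1 CPM in the other clusters. Apoe was at 5311 against 577 CPM, and at 3087 CPM without the 1 cell that held 572 of its 1281 UMIs. Trem2 was at 2338 against 2147 CPM. There 5 of 9 members were at least 2 times higher and 0 lower, against 8.28% and 6.6% of all genes. Of the 5, Lpl, Lgals3 and Msr1 reached 10 CPM only in cluster 5. The 5 include Msr1, on 3 UMIs in 2 cells (ratio 3.01, 0.607 to 9.17), and Cd9, at 1994 against 965 CPM. Without the top cell of each member, a setting chosen after seeing the data, 3 of 9 were at least 2 times higher. These were Apoe, Lpl and Lgals3, the last with 8 UMIs in 4 cells before the top cell was taken out. The share of all genes at this setting is not given here.

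Microglia-like cells were re-clustered without the members, and 10 subclusters held 100 or more cells. Across these, 6 of the 10 members differed by at least 4 times between the highest and the lowest subcluster, against 29.5% of all genes. These were Lpl, Spp1, Lgals3, Msr1, Gpnmb and Tyrobp, and 5 without the hemoglobin-led subcluster, which set the range of Tyrobp. The top of the range was subcluster 7, with 434 cells led by Mmp12, Lilr4b, Adam8, Cxcl2 and Il1rn, 334 of them from library 4 and 98 from library 6. It held 2001 CPM of Lpl (1956 to 2047), 5032 of Spp1 (4959 to 5105), 1154 of Lgals3, 325 of Msr1, 1812 of Cd9 and 10.4 of Gpnmb. Trem2, at 863 CPM, was at its lowest there, and Tyrobp was at 1378 CPM. Of the 10 subclusters, this was the only one where Gpnmb reached 10 CPM, on 38 UMIs of which 14 were in 1 cell. Without that cell Gpnmb was at 6.55 CPM, under the 10 CPM needed to be counted. These values pool the libraries. In library 4, subcluster 7 held 3778 CPM of Spp1, 1777 of Lpl, 1107 of Lgals3 and 2096 of Cd9. In library 6 it held 9166, 2761, 1326 and 899.5 CPM of the same genes. Subcluster 2, with 1142 cells led by Ang, Gm15503 and Clec4a3, stood at the opposite end for the receptor pair, with 2793 CPM of Trem2 and 3332 of Tyrobp beside 11.02 of Lpl and 9.28 of Spp1. The 4 subclusters numbered 0, 1, 3 and 4, with 1994, 1166, 1011 and 837 cells, held 5.10 to 13.2 CPM of Lpl, 2.94 to 52.9 of Spp1, 2.17 to 5.10 of Msr1 and at most 2.12 of Lgals3, with 1686 to 2542 CPM of Trem2.

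Between the ends lay 2 subclusters that each came mostly from 1 library. Subcluster 5, led by Ccl12, Hcar2 and Eef1e1, was drawn 89.9% from library 4 and held 161 CPM of Lpl, 276 of Spp1, 27.0 of Lgals3 and 103 of Msr1 beside 1941 of Trem2. Subcluster 6, led by Ccl12, the replication gene Mcm5 and Cxcl10, was drawn 97.5% from library 6 and held 488 CPM of Lpl, 335 of Spp1, 27.6 of Lgals3 and 184 of Msr1 beside 1342 of Trem2. Subcluster and library cannot be told apart for these. Subcluster 9, the 105 cells led by the interferon genes Ifit3, Ifit1 and Rsad2, held 142 CPM of Lpl and 1210 of Apoe. Of its 81 Lpl UMIs 25 were in 1 cell, and without that cell Lpl was at 102 CPM. In library 3, which gave 62 of the 105 cells, Lpl was at 2.91 CPM. Of the 690 Apoe UMIs of subcluster 9, 426 were in 1 cell, and without that cell Apoe was at 467 CPM. Subclusters 4 and 3 held 886 and 883 CPM of Apoe, and 787 and 709 CPM without their top cells. The lowest Tyrobp value, 519 CPM, belonged to subcluster 8, led by hemoglobin genes with a median of 2050 UMIs per cell; without these 288 cells the Tyrobp range was 2.42 times in place of 6.42.

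The microglial markers P2ry12, Tmem119, Gpr34, Siglech, P2ry13, Olfml3, Cx3cr1 and Sall1 summed to 2433 CPM in subcluster 7, the lowest of the 11 subclusters, against 7082 to 16132 in the rest. The macrophage-like class held 289 CPM of them. The 10 markers of monocyte-derived macrophages summed to 102 CPM in subcluster 7, with UMIs of 8 of the 10. Subcluster 10 stood at 104 CPM, but it held only 12 cells, scored highest for pericyte markers and had UMIs of 2 of the 10. The remaining subclusters lay lower, between 8.87 and 64.7 CPM. The macrophage-like class held 8660 CPM of these markers. At a clustering resolution of 1.2 instead of 0.8, 233 of the 434 cells formed most of a cluster of 245 cells that could not be named. It had 1449 CPM of the microglial and 158 CPM of the macrophage markers. It scored highest for perivascular macrophage markers, with 2 of those 8 raised, and next for microglial ones. That cluster held 3328 CPM of Lpl, 8196 of Spp1, 1928 of Lgals3, 446 of Msr1 and 735 of Trem2, and was then highest of all classes for Lpl, Spp1, Msr1 and Cd9.

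**Figure D3:**
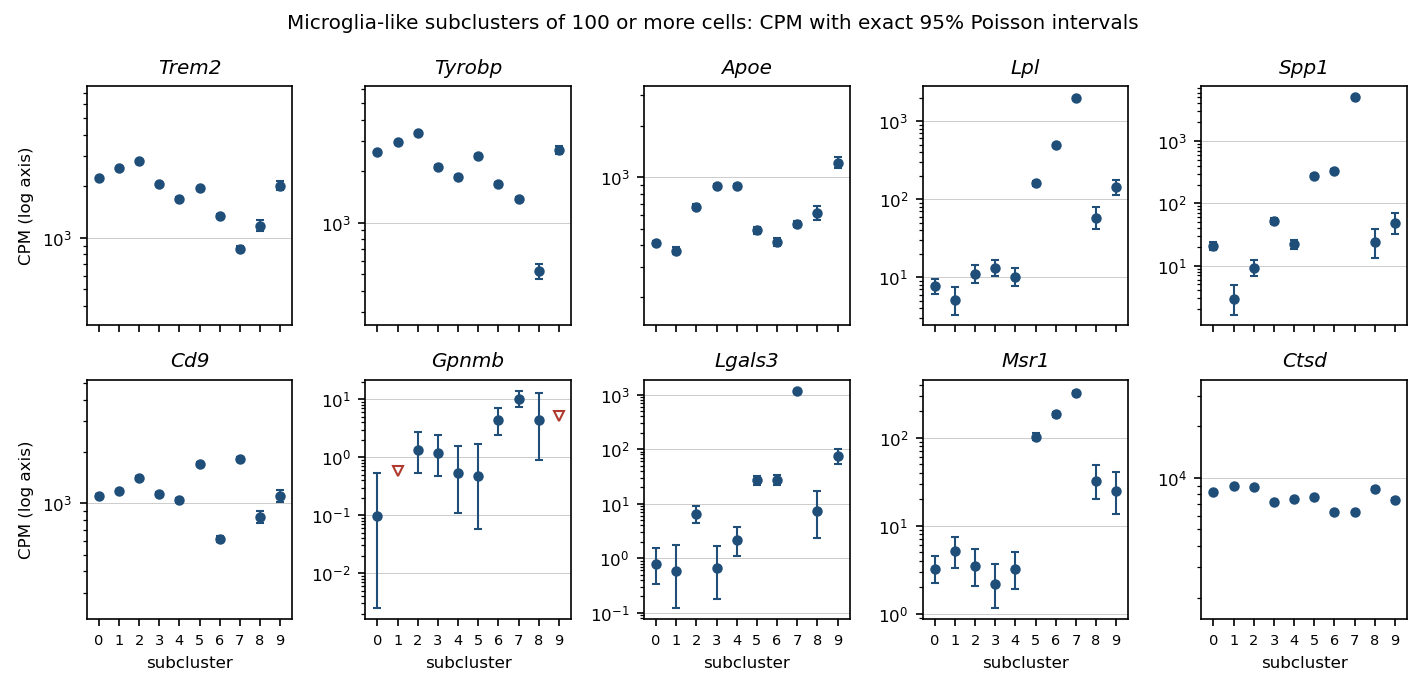
Level of each member (CPM, log axis) in the 10 microglia-like subclusters of 100 or more cells; bars are exact 95% Poisson intervals and open triangles mark a count of 0, drawn at the level of 3 UMIs. Lpl, Spp1, Lgals3 and Msr1 stand highest in subcluster 7, where Trem2, at 863 CPM, is lowest.

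Single cells of subcluster 7 were uneven. Lpl had a UMI in 78.3% of them, Msr1 in 65.4%, Lgals3 in 62.0%, Spp1 in 31.8% and Gpnmb in 2.30%. The 1 cell with most Spp1 held 1026 UMIs, which is 4.75% of all Spp1 UMIs in microglia-like cells. After thinning, 2.67% (2.04 to 3.44) of microglia-like cells in library 4 had Lpl and Spp1 together. Lpl was seen in 54.6% of the 108 cells with Spp1 and in 8.29% of the cells without it. The same shares were 51.1% of 90 cells and 16.7% in library 6. Lgals3 was seen in 36.1% of cells with Spp1 against 5.002% in library 4, and in 24.4% against 3.88% in library 6. Trem2 showed the reverse, with 64.8% against 80.9% in library 4 and 66.7% against 76.6% in library 6. Apoe was seen in 23.2% and 22.5% of these cells in library 4, and in 24.4% and 23.4% in library 6. In library 3, 0 of 3317 thinned cells had Lpl and Spp1 together (upper bound of the interval 0.111%). Only 0.271% had Lpl and 0.633% Spp1 at all, too few for this 0 to tell whether the 2 genes go together. Without thinning, 7 of the 3317 cells had both, with Lpl in 14.6% of the 48 cells with Spp1 and in 1.93% of those without it.

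Thinned cells were also graded by their Spp1 UMIs, with levels per 1000000 UMIs other than Spp1 and bins under 20 cells left out. In library 4, cells with 0, 1, 2 to 4 and 10 or more Spp1 UMIs held 251, 879, 2507 and 4359 CPM of Lpl and 145, 415, 752 and 2163 CPM of Lgals3. Trem2 in these bins was 2074, 1733, 1153 and 811 CPM, and the summed microglial markers were 10500, 7153, 4863 and 1385 CPM. The last 3 bins held 41, 20 and 31 cells. In library 6 the same bins, of 902, 21, 30 and 29 cells, held 391, 1001, 1103 and 3569 CPM of Lpl, 1849, 1239, 1337 and 1142 CPM of Trem2 and 9478, 5529, 6015 and 1499 CPM of the microglial markers. Cells with most Spp1 thus had the most Lpl and the fewest microglial markers in both libraries; Trem2 in library 6 was level over the last 3 bins within its counting intervals. Cd9 went from 1607 to 3143 CPM over the bins of library 4. In library 6 it was at 736, 1049, 869 and 928 CPM, level over the bins within its counting intervals.

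Macrophage-like cells were compared with microglia-like cells, both pooled and inside libraries 4 and 6. Pooled, 5 of the 10 members were at least 2 times higher and 4 at least 2 times lower in macrophage-like cells, against 11.2% and 41.3% of all genes. Higher were Gpnmb, by 160 times (126 to 204), Lgals3 by 40.1, Spp1 by 7.25, Apoe by 5.80 and Msr1 by 4.17 times. Lower were Lpl by 11.5 times (9.02 to 14.8), Trem2 by 10.2 to 12.0 (182 against 2005 CPM), Ctsd by 5.04 and Cd9 by 2.28 times. Tyrobp was 1.07 times higher. Gpnmb reached 10 CPM only in macrophage-like cells, both pooled and inside libraries 4 and 6. The pooled microglia-like cells come from all 6 libraries and the macrophage-like ones mostly from 2, so the values inside libraries 4 and 6 follow.

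Inside libraries 4 and 6, Gpnmb was 22.9 (15.4 to 34.7) and 91.1 (62.2 to 139) times higher in macrophage-like cells, Lgals3 9.22 and 24.8 times, and Apoe 4.90 and 7.19 times. Trem2 was 20.7 and 6.61 times lower, Ctsd 11.5 and 3.36 times lower. Lpl stood at 0.919 CPM, a single UMI, in the macrophage-like cells of library 4 against 438 CPM in microglia-like cells (477 times lower, 85.6 to 18849), and at 28.4 against 684 CPM in library 6, 24.1 times lower (18.8 to 31.5). Spp1 turned with the library. Macrophage-like cells had 389 CPM against 905 CPM in library 4, 2.33 times lower (2.11 to 2.57), and 5174 against 1476 CPM in library 6, 3.51 times higher (3.41 to 3.60). Without library 6 its pooled log2 ratio was 0.18 in place of 2.86, and without library 4 it was 4.01. Msr1 was 1.31 (1.08 to 1.56) and 1.56 (1.42 to 1.73) times higher, less than 2 times in either, and Cd9 was 2.65 and 1.40 times lower. Tyrobp was 1.25 times higher in library 4 (1.21 to 1.30) and 1.25 times higher in library 6 (1.21 to 1.29). Counted inside a library, 3 members were at least 2 times higher and 5 lower in library 4, against 11.5% and 46.5% of all genes. In library 6, 4 were higher and 3 lower, against 10.3% and 38.2%.

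**Figure D4:**
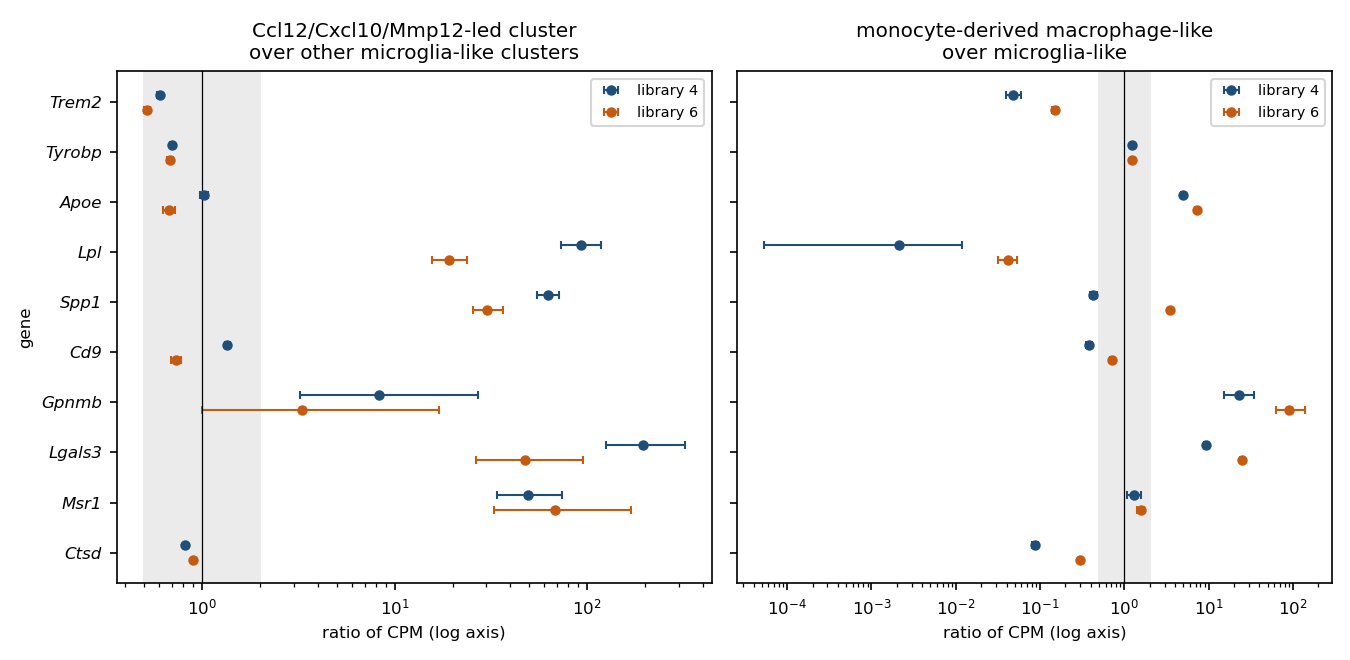
Ratio of CPM (log axis) for each member inside library 4 and library 6: at left the Ccl12/Cxcl10/Mmp12-led cluster over the other microglia-like clusters, at right macrophage-like over microglia-like cells; bars are exact 95% conditional intervals and the grey band is 0.5 to 2. Lpl lies right of the band at left and left of it at right, and Spp1 at right lies on opposite sides in the 2 libraries.

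Macrophage-like cells and cluster 15 were re-clustered together into 9 subclusters, again without the members. Gpnmb, Lgals3 and Spp1 were gathered in subcluster 2, 100 cells led by Arg1, Cxcl3 and Pdpn of which 94.0% came from library 6. It held 846.5 CPM of Gpnmb, 8730 of Lgals3, 8493 of Spp1, 5796 of Apoe and 3015 of Ctsd. Subcluster 0, 167 cells led by Arg1, Cxcl3 and Vcan, held 80.6 CPM of Gpnmb, 2620 of Lgals3 and 2484 of Spp1. Here both libraries could be read. Spp1 was at 900 CPM in library 4 and 3149 in library 6, Gpnmb at 25.3 and 104, and Cd9 at 1059 and 235, while Lgals3 was at 2581 and 2651 CPM. Subcluster 4, 69 cells led by Ttr, Lcn2, Hp and Chil3 and drawn 79.7% from library 4, held 2272 CPM of Lgals3 with 51.9 CPM of Spp1 and 44.5 of Cd9.

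Apoe and Trem2 were highest in other subclusters than Gpnmb. Subcluster 3 was perivascular macrophage-like, 71 cells led by Hbb-bs and Lyve1 with all 8 of that list's markers raised, and held 32020 CPM of Apoe and 580 of Trem2 beside 8.01 of Lgals3 and 77.5 of Spp1. Subcluster 5, 46 cells led by Retnla, Ccl12 and Ccnd1, held 15925 CPM of Apoe and 507 of Trem2. The 24 cells of subcluster 7 held 952 CPM of Trem2 and 1281 of Spp1, and also 4578 CPM of microglial markers, where the other subclusters held 22.5 to 667 CPM; the part of microglial RNA in these values was not tested. The 106 cells led by Klrd1, Ifitm1 and Mal had 1131 CPM of Lgals3 and 1762 of Tyrobp with 7.82 of Trem2 and 72.8 of Apoe. Of the smallest subclusters, the 30 cells led by G0s2, Fabp4 and Cd300e held 720 CPM of Lgals3 and 7.20 of Spp1, and the 19 cells led by Ccr7 and Serpinb6b held 416 of Lgals3 and 5.63 of Spp1.

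**Figure D5:**
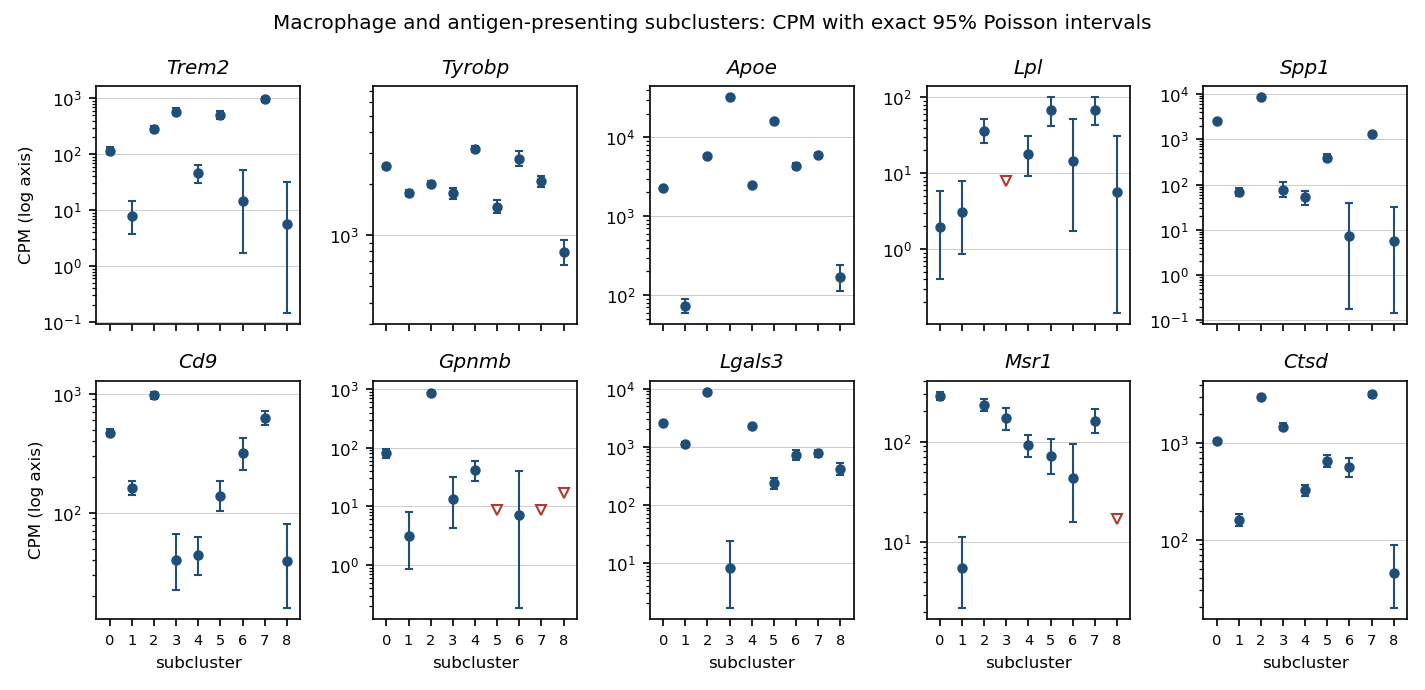
Level of each member (CPM, log axis) in the 9 subclusters of the macrophage-like cells and cluster 15; bars are exact 95% Poisson intervals and open triangles mark a count of 0, drawn at the level of 3 UMIs. Gpnmb, Lgals3, Spp1 and Cd9 peak in subcluster 2, Apoe in subcluster 3 and Trem2 in subcluster 7.

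Other genes of the same programmes were counted from fixed lists, in cluster 5 against the other microglia-like clusters. Of 18 further disease-associated genes, 16 had at least 10 CPM, and of these 8 were at least 2 times higher and 0 lower in library 4 (median log2 ratio 1.03, against -0.05 over all genes), and 7 were higher in library 6 (median 0.84). The most abundant were the cathepsin genes Ctsb, at 5051 against 2374 CPM in library 4, Ctsl, at 3360 against 2173, and Ctsz, at 2412 against 1849. Among less abundant genes, chosen for mention after their values were seen, Csf1, a ligand of the receptor Csf1r, was at 409 against 107.5 CPM, the tetraspanin Cd63 at 1283 against 491.5, the oxidase subunit Cybb at 56.1 against 3.38 and the cystatin Cst7 at 34.1 against 4.92 CPM. Of the 12 homeostatic genes 6 were at least 2 times lower in library 4 and 7 in library 6, and 0 were higher in either. Cx3cr1, the fractalkine receptor, was at 2398 against 3927 CPM in library 4, and P2ry12 at 479 against 1942 CPM. The 8 microglial markers that named the class are among these 12. Gpr84, counted as higher in both libraries, is among the 10 leading genes of cluster 5, which in part fixes its place. The other list genes were not kept out of the clustering either, unlike the members. Counts for this and the next lists are therefore descriptions and not independent of how the clusters were formed. Of the genes higher in library 4, Cst7, Itgax, Cybb and Ch25h reached 10 CPM only in cluster 5, as did Itgax, Cybb and Ch25h in library 6. Of all genes, 6.98% were at least 2 times higher and 7.36% lower in library 4, and 7.66% and 8.01% in library 6.

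In the list of lipid handling, 2 of 11 measured genes in library 4 and 3 of 12 in library 6 were at least 2 times higher. None were lower, and the medians were -0.02 and 0.18. For this and the next lists, 6.98% of all genes were higher and 7.36% lower in library 4, and 7.66% and 8.01% in library 6. Plin2, which coats lipid droplets, was at 320 against 53.2 CPM in library 4 and at 446 against 59.1 CPM in library 6, and the ester hydrolase Nceh1 at 36.8 against 15.5 and 49.3 against 16.8 CPM. Npc2, which binds cholesterol in the lysosome, was at 740 against 750 CPM in library 4. The cholesterol exporter Abca1 was at 218 against 218 CPM in library 4 and 207 against 108 CPM in library 6. The list of TREM2 signalling also holds other receptors of the TREM family, the adaptor Hcst and the sheddases Adam10 and Adam17. Of its 12 measured genes, 2 were at least 2 times lower in library 4, the lipid phosphatase Inpp5d (193 against 388 CPM) and the kinase subunit Pik3cg. In library 6 they were Inpp5d, Pik3cg, Pik3cd, Card9 and Hcst, and 0 were higher in either. The kinase Syk was at 48.0 against 92.8 CPM in library 4. Of all genes, 7237 of 8449 in library 4 and 7098 of 8417 in library 6 lay within 2 times. Among lysosomal genes 10 of 11 in library 4 and 11 of 11 in library 6 did so. The most abundant, Ctss, was at 4503 against 6348 CPM and Lgmn at 2723 against 3084 CPM in library 4. The MiT/TFE factors Mitf, Tfeb and Tfe3 lay within 2 times in both, and Tfec was below 10 CPM. Of the osteopontin receptors, Cd44 was at 15.5 against 1.27 CPM and Itga5 at 84.1 against 8.16 CPM in library 4, and Itgb5 at 438 against 969 CPM. Immediate-early and dissociation genes, which handling can induce, had medians of -0.05 and -0.20, with 2 and 1 of 14 at least 2 times higher. Ccl3 and Ccl4 were 3.44 and 2.89 times higher in library 4. Both are among the 10 leading genes of cluster 5, which in part fixes their place there.

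In macrophage-like against microglia-like cells the lists were counted over pooled cells, with the limit on libraries given above. Of 18 lipid genes, 9 were at least 2 times higher and 1 was lower, with a median log2 ratio of 1.585 against -0.75 over all genes. Inside library 4 they were 8 higher and 2 lower (median 0.62, all genes -0.89), and inside library 6, 9 and 0 (1.40 and -0.68). The fatty acid carrier Fabp5, from the disease-associated list, was at 1017 against 15.8 CPM, Plin2, which was also high in cluster 5 of libraries 4 and 6, at 1361 against 126, Apoc2 at 342 against 0.377 and the scavenger receptor Cd36 at 93.7 against 3.58 CPM. Cd44, a receptor for osteopontin, was at 473 against 4.26 CPM, one of 2 receptors of 8 that were higher, with 4 lower. Of the 12 lysosomal genes 1 was higher and 5 were lower, where 11.2% of all genes were higher and 41.3% lower. Inside library 4, 0 of 11 were higher and 6 lower, and inside library 6, 1 of 12 was higher and 2 lower. Of the 16 genes on the TREM2 signalling list 4 were higher, namely the exchange factor Vav3 and the receptors Trem1, Trem3 and Treml4 of the same family. Lower were 6, namely Inpp5d, Pik3cd, Pik3cg, Card9, Btk and Adam10. Disease-associated genes split into 5 higher and 6 lower of 15, where Ccl6 was at 2158 against 93.8 CPM and Csf1 at 25.2 against 151 CPM. Homeostatic genes were lower in 12 of 12, which the naming of the classes in part fixes. Dissociation genes were lower in 5 of 14 pooled, near the 41.3% of all genes, and in 8 and 5 of 14 inside libraries 4 and 6. The 3 measured MiT/TFE factors had a median of -0.85.

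Genes whose pattern was most like each member were sought by Pearson's r of log2(CPM + 10), as a description over units that share libraries. Over the 13 classes, Trem2 was closest to Csf1r (r = 0.99), C1qa and C1qb, Tyrobp to Plek (0.99), Cd53 and Itgb2, Spp1 to Tgfbi (0.91), Ccl2 and Ccl7, Msr1 to Ms4a6d (0.97), Ms4a6c and Ccl9, and Gpnmb to Ms4a7 (0.98), Gm6377 and Ms4a8a. Among the most similar genes, Lgals3 had Rab20 (0.90), Nfil3 and Hif1a, Ctsd had C5ar2 (0.93), Cd300c2 and Havcr2, Lpl had Slc29a1 (0.84) and Cryl1, Cd9 had Rffl (0.88), Cpeb2 and Slc27a4, and Apoe had Gcsh (0.84), Slc27a1 and Appl2.

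Over 34 microglia-like units, each a subcluster in a library with 30 or more cells, Lpl was closest to Lilrb4a (0.92), Pkm and Dab2, Msr1 to Lilrb4a (0.93), Dab2 and Il1rn, Lgals3 to Adam8 (0.95), Olfr132 and Jag1, and Spp1 to Rab7b (0.89), Ifi207 and Plin2. Trem2 was closest to Hfe (0.93), C1qc and Gm2a, Tyrobp to Fcer1g (0.96), Vamp8 and Tmsb4x, Ctsd to Ctsa (0.76), Tm6sf1 and Atp6v0b, Cd9 to Card19 (0.70), Cap1 and Gatm, and Apoe to Arsa (0.56), Ifi27l2a and Rassf3. Gpnmb was too low for a match to be read. Among the members, Lpl ran with Msr1 (0.92), Lgals3 (0.88) and Spp1 (0.81), and Trem2 with Tyrobp (0.77). Trem2 ran against Msr1 (-0.66) and Lpl (-0.62), and the r of Apoe with the other members lay between -0.12 and 0.20.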

How the data were processed

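Cells of 6 samples (contralateral and ipsilateral brain at 1, 12 and 24 h, 1 sample each) were sequenced by 10x 3′ chemistry. The authors counted reads with Cell Ranger 5 on mm10 and joined the libraries with a step that evens out depth, which lowers the deeper libraries; the deposited matrix holds whole UMI counts. Barcode suffixes were not tied to samples, so libraries stayed unassigned and untested.

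Barcodes had to pass the order-of-magnitude rule (0.1 of the high UMI count, 3000 cells expected), 200 features and a ceiling of 10% mitochondrial UMIs; 22913 barcodes had 200 features and 17357 passed all. Counts were scaled to 10000 per cell, logged, reduced to 2000 variable genes and 30 components (15 for subclusters) and clustered by Leiden (leidenalg 0.10.2, igraph 0.11.9, resolution 0.8, 20 neighbours). Clusters were named from 18 marker lists. Doublets were called by Scrublet's procedure and kept (1.84% of cells, 1.07 to 2.74% per library). Summed UMIs gave CPM with exact Poisson intervals, ratios with exact conditional intervals and shares with Clopper-Pearson intervals, all at 95% (scipy 1.17.1); intervals and floors cover counting error only. For folds, counts under 3 were set to 3, and genes needed 10 CPM in a group compared. Shares were compared after thinning each cell to 1000 UMIs. Microglial RNA in other classes was gauged from their microglia-marker UMIs, and free RNA from barcodes of 1 to 50 UMIs. The scripts were tested on simulated data.

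The members and lists were chosen with earlier results of these data known; motifs and the comparison of cluster 5 were added after results were seen. Named genes were the members, the leading genes of clusters, the 3 most similar genes and the list genes of highest level; other list genes were chosen after their values were seen. Some genes that this rule would name are not reported here, and Clec7a was not analysed here.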

Additional observations from a re-analysis of the deposited data

How the results depend on the processing

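The 5 counts of members kept to within 1.5 times under all 15 alternatives: filters on features and mitochondria alone, doublets removed, resolutions 0.4 and 1.2, members among the variable genes, means of the cells' own CPM, thinning, each library left out, and 2 chosen after seeing the data (shared barcodes removed, the hemoglobin-led subcluster removed). Leaving out single libraries gave 5 to 6 members highest in a microglia-like or macrophage-like class, and 4 to 5 higher and 4 lower in macrophage-like cells. It gave 5 to 6 members spread over libraries and 6 over subclusters. The lower values came without library 6, where Lpl was highest in fibroblast-like cells and Apoe in cluster 15. Resolution 1.2 gave 5 highest in a microglia-like or macrophage-like class, the perivascular one included, and removing the hemoglobin-led subcluster gave 5 spread over subclusters. At resolution 1.2 the unnamed cluster of 245 cells left the microglia-like class, so its Spp1 range over libraries was 33.7 times in place of 167 and the log2 ratio of macrophage-like to microglia-like cells was 4.79 in place of 2.86 for Spp1 and 7.86 in place of 5.32 for Lgals3. That cluster, not a named class, was then highest for Cd9, Lpl, Msr1 and Spp1. Apoe was then highest in a perivascular macrophage-like class. The pooled log2 ratio of Tyrobp, 0.101, reversed to -0.019 without library 4 and was 0.280 without library 6. Inside library 4 and inside library 6 Tyrobp was 1.25 times higher in macrophage-like cells. The cause of the pooled reversal was not tested. Of the 150 member ratios between the 2 classes under these alternatives, 97 stayed inside the counting interval of the reported value, 52 moved outside it and 1 reversed. The share of genes past each fold changed from 11.2, 41.3, 36.5 and 29.5% to 16.1, 33.3, 30.7 and 31.3% with a minimum of 50 CPM. Without thinning, Lpl and Spp1 were seen together in 4.71% and 10.99% of microglia-like cells of libraries 4 and 6, in place of 2.67% and 4.64%. No paired analysis was possible because no library is tied to a group and each group has 1 sample. Each condition being 1 library, no value here has a spread between animals, and Gpnmb in microglia-like cells rests on 77 UMIs.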
